A study of Mus musculus with 2 samples.

Results

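Splenic natural killer (NK) cells that carried transcripts of mitosis were chosen by a fixed rule on measured values, and 109 such cells were found among 19665 NK cells. A barcode was taken as an NK cell when it had at least 500 genes, at most 10% of its unique molecular identifiers (UMIs, which count captured transcripts) from mitochondrial genes, at least 2 UMIs over Ncr1, Klrb1c and Klrk1, 0 UMIs of Cd3e, and at most 1 UMI over C1qa, C1qb, C1qc and H2-Aa. It was selected on transcripts of mitosis when at least 3 of the 6 genes Ccnb2, Ube2c, Cenpf, Cdca3, Tpx2 and Cenpe each had a UMI. These cells are called mitotic NK cells here, and NK cells of the same library below that number are called other NK cells. The control library held 84 mitotic and 10372 other NK cells, and the knockout library held 25 and 9184.

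The study measured single-cell RNA in NK cells sorted from spleen as CD27+CD11b+, from C57BL/6 mice. Both genotypes carried floxed EP3 alleles, and EP3 is the prostaglandin E2 receptor encoded by Ptger3. The control mice were EP3F/F, and the knockout mice were NKp46CreEP3F/F, in which Cre is driven by the gene of the NK receptor NKp46 (Ncr1). Cells of 2 mice per genotype were pooled into 1 droplet library, so each genotype had 1 library, no test of genotype was possible, and the 95% intervals below cover counting error only. All ratios between mitotic and other NK cells describe cells that were chosen on the same measurements, and cells of 1 library are not replicates.

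In the cell cycle, DNA is copied in S phase, checked in G2 and divided in mitosis (M). Genes of mitosis are transcribed late in the cycle, from G2 into M, largely through the DREAM and B-Myb-MuvB complexes with FOXM1, and their protein products are destroyed as the cell exits mitosis. NK cells in the spleen are mostly resting, and a small fraction divides to maintain the population and, in larger numbers, after infection or cytokine exposure.

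The 6 rule genes act at successive steps of division. Ccnb2 is a B-type cyclin that activates Cdk1. Ube2c is the ubiquitin-conjugating enzyme of the anaphase-promoting complex. Cenpf and Cenpe act at kinetochores, Tpx2 activates the kinase Aurora A at the spindle, and Cdca3 promotes entry into mitosis. Promoters are shown because genes of mitosis are known to share 2 short promoter elements, the CHR (TTTGAA) and the CCAAT box bound by NF-Y. Those shown are of the 4 rule genes found with a TTTGAA, and of Hmmr, the measured gene with the highest ratio outside the rule. Each runs 5′ to 3′ on the gene's own strand from 250 bases before to 50 bases after the RefSeq start in GRCm38.p6, and capitals mark every TTTGAA and CCAAT on either strand (TTCAAA and ATTGG are the reverse complements).
Ccnb2 (chr9:70421505-70421804, minus strand): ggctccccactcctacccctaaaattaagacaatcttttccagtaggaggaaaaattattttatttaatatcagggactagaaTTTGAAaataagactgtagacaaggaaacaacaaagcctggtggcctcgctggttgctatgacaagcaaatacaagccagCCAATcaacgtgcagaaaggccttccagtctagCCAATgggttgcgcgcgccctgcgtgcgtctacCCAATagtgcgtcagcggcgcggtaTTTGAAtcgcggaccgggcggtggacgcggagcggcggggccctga
Cdca3 (chr6:124829926-124830225, plus strand): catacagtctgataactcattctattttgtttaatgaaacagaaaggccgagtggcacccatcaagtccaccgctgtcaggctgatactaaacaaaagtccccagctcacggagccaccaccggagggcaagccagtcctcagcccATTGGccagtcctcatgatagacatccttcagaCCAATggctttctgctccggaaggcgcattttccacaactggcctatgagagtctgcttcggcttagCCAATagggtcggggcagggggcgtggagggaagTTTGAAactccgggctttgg
Cenpf (chr1:189688037-189688336, minus strand): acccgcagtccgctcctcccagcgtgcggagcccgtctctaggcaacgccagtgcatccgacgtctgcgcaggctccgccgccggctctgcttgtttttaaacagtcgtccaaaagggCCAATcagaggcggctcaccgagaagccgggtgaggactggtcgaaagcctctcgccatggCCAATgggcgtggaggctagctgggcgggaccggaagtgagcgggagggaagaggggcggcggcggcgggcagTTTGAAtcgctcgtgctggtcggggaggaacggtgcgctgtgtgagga
Ube2c (chr2:164769679-164769978, plus strand): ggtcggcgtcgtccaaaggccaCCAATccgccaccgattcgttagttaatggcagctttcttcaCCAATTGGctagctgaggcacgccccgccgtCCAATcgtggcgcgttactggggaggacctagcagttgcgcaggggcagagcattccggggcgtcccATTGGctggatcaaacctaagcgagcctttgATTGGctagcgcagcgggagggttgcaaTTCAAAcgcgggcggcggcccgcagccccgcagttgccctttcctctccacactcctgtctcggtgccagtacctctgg
Hmmr (chr11:40733388-40733687, minus strand): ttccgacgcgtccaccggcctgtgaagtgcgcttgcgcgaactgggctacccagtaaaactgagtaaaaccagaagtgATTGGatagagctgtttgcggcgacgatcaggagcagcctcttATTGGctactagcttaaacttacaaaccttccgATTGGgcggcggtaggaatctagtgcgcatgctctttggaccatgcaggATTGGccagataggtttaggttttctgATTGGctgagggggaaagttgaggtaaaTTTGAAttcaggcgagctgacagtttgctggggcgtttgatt

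In the Ccnb2 promoter the first base of a TTTGAA lay at 5 and those of 3 CCAAT boxes at -87, -54 and -21, counted from the start. In Cenpf the TTTGAA lay at 3, in Hmmr at 9 and in Cdca3 at 31, each downstream of CCAAT boxes, and in Ube2c it lay at -29. Over the first listed promoter of each of 27025 genes in the RefSeq table, 18.1% held TTTGAA, 37.9% held CCAAT and 7.12% held both. Of the 6 rule genes, 5 were matched, 4 held TTTGAA and 5 held CCAAT. The matched rule gene not shown, Cenpe, held a CCAAT at -12 and no TTTGAA. Of the 12 genes with the highest ratios outside the rule, 8 were matched, 5 held TTTGAA and 5 held CCAAT. Birc5 and Nusap1 were among those 8 and held neither. Among the 76 matched genes of 91 on 4 lists of mitosis (kinases, kinetochore, spindle motors and cytokinesis), TTTGAA was in 57.9%, CCAAT in 68.4% and both in 47.4%. Among the 39 matched genes of 49 on the DNA replication list, CCAAT was in 66.7% and TTTGAA in 12.8%. Among the 2321 matched genes of 2925 measured in the control library, TTTGAA was in 12.3% and CCAAT in 38.4%. These matches describe letters in a window and not binding.

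Mitotic cells made up 0.803% of the NK cells in the control library, with a 95% exact binomial interval of 0.641% to 0.994%. In the knockout library they made up 0.271%, with an interval of 0.176% to 0.400%. The control share was 2.96 times the knockout share, with a counting interval of 1.87 to 4.83. The rule needs UMIs of several genes, so it depends on depth, and the other NK cells had a median of 5824 UMIs in the control library and 3831 in the knockout. After each cell was thinned to 2000 UMIs, with shallower cells left out (134 in the control library and 191 in the knockout), the rule was met by 30 of 10322 cells in the control (0.291%, 0.196 to 0.415) and by 12 of 9018 in the knockout library (0.133%, 0.0688 to 0.232). The control share was then 2.18 times the knockout share (1.09 to 4.68). With 1 library per genotype, a difference between genotypes and a difference between pools of mice, sorts or libraries cannot be told apart.

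**Figure D1:**
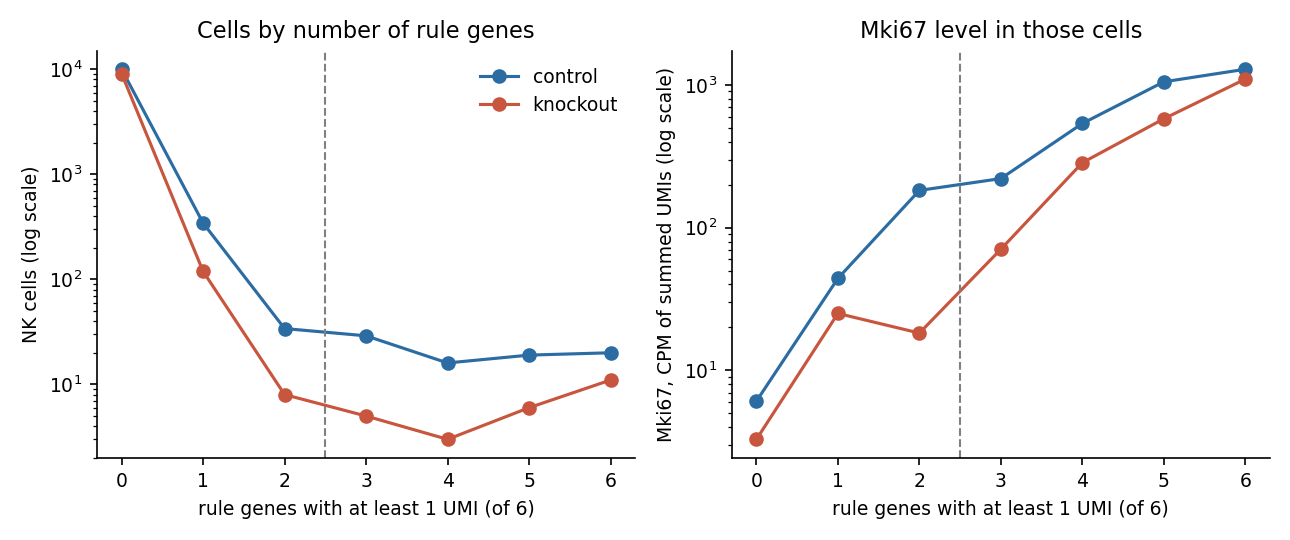
Left: number of NK cells (log scale) by how many of the 6 rule genes had a UMI, in the control (blue) and knockout (red) library. Right: Mki67 in those cells, as counts per 1000000 UMIs (CPM) of UMIs summed over the cells (log scale). The dashed line is the rule's threshold. Cell numbers fall from 9995 and 9057 at 0 genes to 16 and 3 at 4 genes and then rise to 20 and 11 at 6 genes.

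Cells by number of rule genes did not thin out steadily, as the plot of cells by number of rule genes shows. The control library had 34 cells with 2 rule genes, 29 with 3, 16 with 4, 19 with 5 and 20 with 6. The knockout library had 8, 5, 3, 6 and 11. At the threshold, control cells with 3 rule genes had 221 CPM of Mki67, a marker of proliferating cells, against 182 CPM in cells with 2. Of Birc5 (survivin) they had 149 against 18.8 CPM, and of the histone transcript Hist1h2ap 292 against 53.7 CPM. In the knockout library Mki67 was at 70.6 CPM in the 5 cells with 3 rule genes and at 18.3 CPM in the 8 cells with 2. Hist1h2ap lay the other way there, at 23.6 CPM in the cells with 3 rule genes and at 256 CPM in those with 2. Cells with all 6 rule genes had 1287 CPM of Mki67 in the control library and 1098 CPM in the knockout.

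Mitotic cells had more UMIs than the other NK cells of their library. Their median was 9670 UMIs in the control (2092 to 25242) and 10449 in the knockout library (3575 to 15694), which was 1.66 and 2.73 times the median of the other NK cells. The rule asks for UMIs of at least 3 genes and so favours deep cells. Below the threshold too, cells with 0, 1 and 2 rule genes had medians of 5781, 7402 and 9766 UMIs in the control library. In the knockout library these were 3824, 4317 and 6784 UMIs. The part of the rule in the depth and gene numbers of mitotic cells was not tested. Between libraries the mitotic medians differed little, at a ratio of 0.925 for control over knockout, against 1.52 in other NK cells. Mitotic cells had a median of 2717 and 2747 genes, against 2112 and 1521. At 2000 UMIs per cell the medians were 1000 and 945 genes in mitotic cells and 1012 and 961 in other NK cells. The mitochondrial share was alike, with medians of 3.49% and 3.69% in mitotic and 3.47% and 3.89% in other NK cells. No doublet caller was run. Of the mitotic cells, 10 of 84 (11.9%) and 10 of 25 (40%) lay above 3 times their library's median UMIs, against 0.472% and 0.577% of other NK cells. No mitotic cell carried a barcode sequence that both libraries shared, while 59 other NK cells did.

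Ncr1 had a UMI in 83 of 84 control and 25 of 25 knockout mitotic cells, and the gate used this gene. Of NK transcripts that the gate did not use, Klrd1 (CD94) was at 1378 against 1258 CPM in other NK cells of the control and at 1405 against 1669 CPM in the knockout library. Tyrobp (DAP12), a signalling adaptor of NK receptors, was at 2047 against 3044 CPM and 1838 against 3159 CPM. Markers of other lineages were in part at 0 UMIs in mitotic cells and in part not. Cd3e, which the gate used, and Cd4, Cd8a, Cd8b1 and Cd5 of T cells had 0 UMIs in both libraries. Cd79a and Ms4a1 of B cells had 0 UMIs, as did Alas2 and Car1 of red cell precursors, while Klf1 had a UMI in 1 knockout cell. The 10 erythroid markers summed to 449.7 against 211.5 CPM in the control and 381 against 297.3 CPM in the knockout library. The 9 T cell markers summed to 49.0 CPM in mitotic against 40.6 CPM in other NK cells of the control, and to 115 against 69.1 CPM in the knockout library, mostly from Cd3d, Cd3g and Trac. The 8 dendritic cell markers had 2 and 5 UMIs and the 6 platelet markers 5 and 2. The gate allowed at most 1 UMI over C1qa, C1qb, C1qc and H2-Aa, which bears on the counts of macrophage and dendritic cells. The 9 macrophage markers summed to 1 UMI in each library, and the 8 granulocyte and monocyte markers to 0 UMIs in the control and 8 in the knockout cells. Over 45 markers of other lineages, 80 of 84 and 24 of 25 mitotic cells had a UMI, against 78.7% and 70.3% of other NK cells. Most of those UMIs came from Car2 (carbonic anhydrase 2), Ighm, Cd3d, Cd3g, Trac and Bcl11b, 6 genes with a UMI in over 2.5% of other NK cells in both libraries. Cd3d had a UMI in 15.5% and 20% of mitotic against 5.19% and 4.36% of other NK cells. For Trac these were 10.7% and 8% against 3.71% and 3.04%, and for Ighm 65.5% and 48% against 44.8% and 26.6%. Bcl11b was alike, at 3.57% and 4% against 3.84% and 3.15%. The part of the greater depth of mitotic cells in these shares was not tested. By the 39 remaining markers, 6 of 84 (7.14%) and 5 of 25 (20%) mitotic cells had a UMI, against 8.81% and 12.9% of other NK cells. Without those cells, left out after seeing the data, 0.818% of control and 0.249% of knockout NK cells were mitotic, a ratio of 3.28.

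Genes with a mean of at least 50 CPM over mitotic and other NK cells were compared, and a gene was called when its log2 ratio reached 1 in size. Of 2919 genes in the control library, 105 were higher in mitotic cells (3.6%) and 30 were lower (1.03%). Of 2709 genes in the knockout library, 219 were higher (8.08%) and 144 were lower (5.32%). The knockout counts rest on 251948 UMIs of mitotic cells against 898382 in the control, and the part of this depth in the larger counts was not tested. Both libraries shared 94 higher genes, which is 89.5% of the control's and 42.9% of the knockout's, and 17 lower genes, 56.7% and 11.8%. A gene that is nearly silent in other NK cells passes the minimum only through the mitotic cells, so for genes of mitosis a count of higher genes describes the filter too, and summed levels over every listed gene are given below.

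Across the 2462 genes measured in both libraries, the log2 ratios had a Pearson r of 0.911 and a Spearman rho of 0.730, which are descriptions over genes that share libraries and depth. Of the 105 genes higher in the control, 104 had a positive ratio in the knockout library, and all 30 lower genes had a negative one. As background, the median log2 ratio over all measured genes of the knockout library was 0.003. The same 6 rule genes chose the cells of both libraries, so this likeness describes the choice too.

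**Figure D2:**
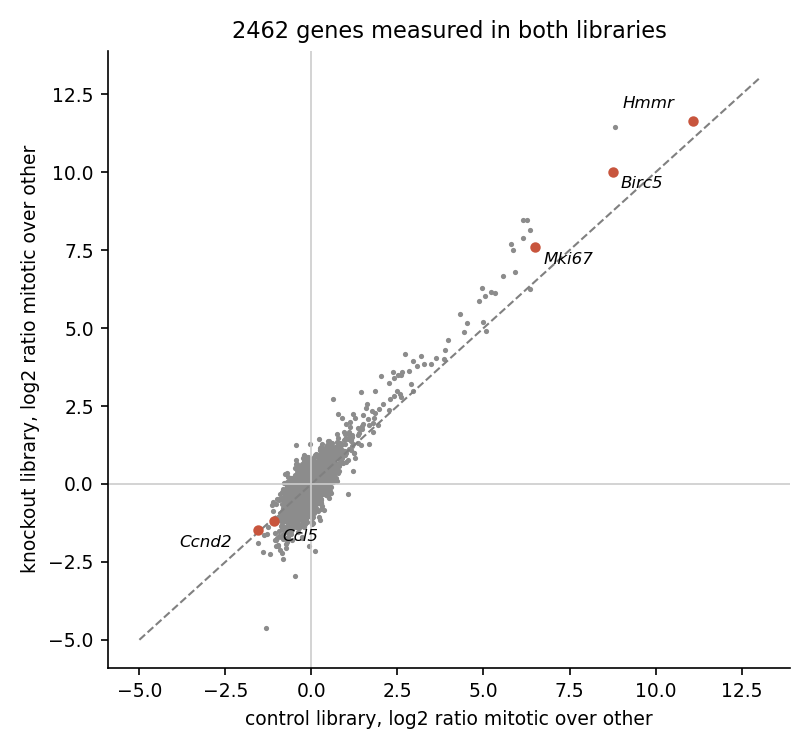
Log2 ratio of mitotic over other NK cells for the 2462 genes measured in both libraries, control on the x axis and knockout on the y axis, without the 6 rule genes. The dashed line marks equal ratios. Genes of mitosis such as Hmmr, Birc5 and Mki67 lie far out and mostly above the line, and Ccnd2 and Ccl5 lie below 0 in both libraries.

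Genes that control entry into mitosis were at higher levels in mitotic cells. Over 22 cyclins, kinases and their regulators, the summed level was 1104 CPM in control mitotic cells against 110.5 CPM in other NK cells, a log2 ratio of 3.32 (3.22 to 3.42). In the knockout library it was 2314 against 120.0 CPM, a log2 ratio of 4.27 (4.14 to 4.39). In other NK cells, 45.7% and 37.3% had a UMI of the list. Only 2 and 6 of the 22 genes passed the minimum level. Cdk1, the kinase that drives entry into mitosis, was at 76.8 against 2.79 CPM in the control and 218 against 3.78 CPM in the knockout library. Ccnb1, its cyclin B1 partner, was at 34.5 against 0.533 CPM and 83.4 against 0.750 CPM. Ccna2 (cyclin A2) was at 98.0 against 0.244 CPM and 214 against 0.207 CPM.

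Kinase transcripts were sparse per cell. Plk1, a kinase of spindle assembly and mitotic exit, had a UMI in 19 of 84 control and 11 of 25 knockout mitotic cells, and in 0.434% and 0.359% of other NK cells. Aurka, the spindle pole kinase, had one in 11 and 8 mitotic cells, and Aurkb, the kinase of the chromosome passenger complex, in 23 and 13. Cks1b, a small partner of cyclin-dependent kinases, was at 197 against 6.37 CPM and 385 against 4.97 CPM, and Cks2 at 208 against 36.2 CPM and 464 against 40.8 CPM. For Plk1 the shares in other NK cells are the background for its counts, with the depths given above. Against other NK cells, Aurka had log2 ratios of 3.59 and 4.76, and Aurkb 5.63 and 6.83.

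The kinetochore, which ties chromosomes to the spindle, and the spindle motors followed. The 35 kinetochore and checkpoint genes summed to 1955 CPM in control and 3429 CPM in knockout mitotic cells, with log2 ratios of 2.34 (2.27 to 2.41) and 3.14 (3.04 to 3.23). Spc24, a subunit of the Ndc80 complex, was at 124 against 2.15 CPM and 341 against 1.86 CPM. Cenpa, the centromeric histone, was already at 27.6 and 31.7 CPM in other NK cells and reached 309 and 456 CPM. The 24 spindle motors and microtubule regulators had log2 ratios of 2.86 (2.78 to 2.95) and 3.98 (3.85 to 4.11). Hmmr, a spindle assembly factor, had the highest mean ratio among measured genes outside the rule, at 133 against 0.0609 CPM and 167 against 0.0517 CPM. Its log2 ratios were 11.09 (9.69 to 12.99) and 11.65 (9.71 to 14.75), and it had a UMI in 37 and 13 mitotic cells and in 0.0386% and 0.0218% of other NK cells. Nusap1, which bundles spindle microtubules, had log2 ratios of 6.35 and 8.14, and the motor Kif11 6.14 and 7.90.

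Cytokinesis genes had the highest ratio of the lists outside the rule and the indices described below in both libraries. Over 14 genes of cytokinesis and the chromosome passenger complex, the sum was 1366 against 106 CPM in the control (log2 ratio 3.69, 3.6 to 3.77) and 2298 against 96.3 CPM in the knockout library (4.58, 4.45 to 4.70). Birc5, the survivin subunit of the passenger complex, was at 347 against 0.807 CPM and 699 against 0.672 CPM. Per cell, Birc5 ranged in the control from 0 to 12.5 per 10000 UMIs with a median of 2.74, and in the knockout library from 0 to 21.5 with a median of 6.64. It had a UMI in 62 of 84 and 22 of 25 mitotic cells, against 0.482% and 0.272% of other NK cells. Cdca8 (borealin), of the same complex, had log2 ratios of 5.91 and 6.79. The anaphase-promoting complex, which starts chromosome separation, showed smaller ratios over its 20 genes, 0.91 (0.84 to 0.99) and 1.29 (1.17 to 1.41). Of those genes Ube2s, which extends ubiquitin chains, had log2 ratios of 1.95 and 2.39, and the subunit Anapc13 0.59 and 0.60.

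Building blocks of the spindle were present in other NK cells and higher in mitotic ones. The 11 tubulin and stathmin genes summed to 3054 against 672 CPM in the control (log2 ratio 2.18, 2.13 to 2.24) and 7331 against 748 CPM in the knockout library (3.29, 3.22 to 3.36). Stmn1 (stathmin), which destabilises microtubules, was at 1177 against 79.4 CPM and 2286 against 116 CPM. Tubb5 was at 836 against 161 CPM and 2243 against 186 CPM. Tuba1a, another alpha tubulin, had log2 ratios of -0.06 (-0.43 to 0.28) and 0.54 (-0.01 to 1.04), and both intervals included 0.

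**Figure D3:**
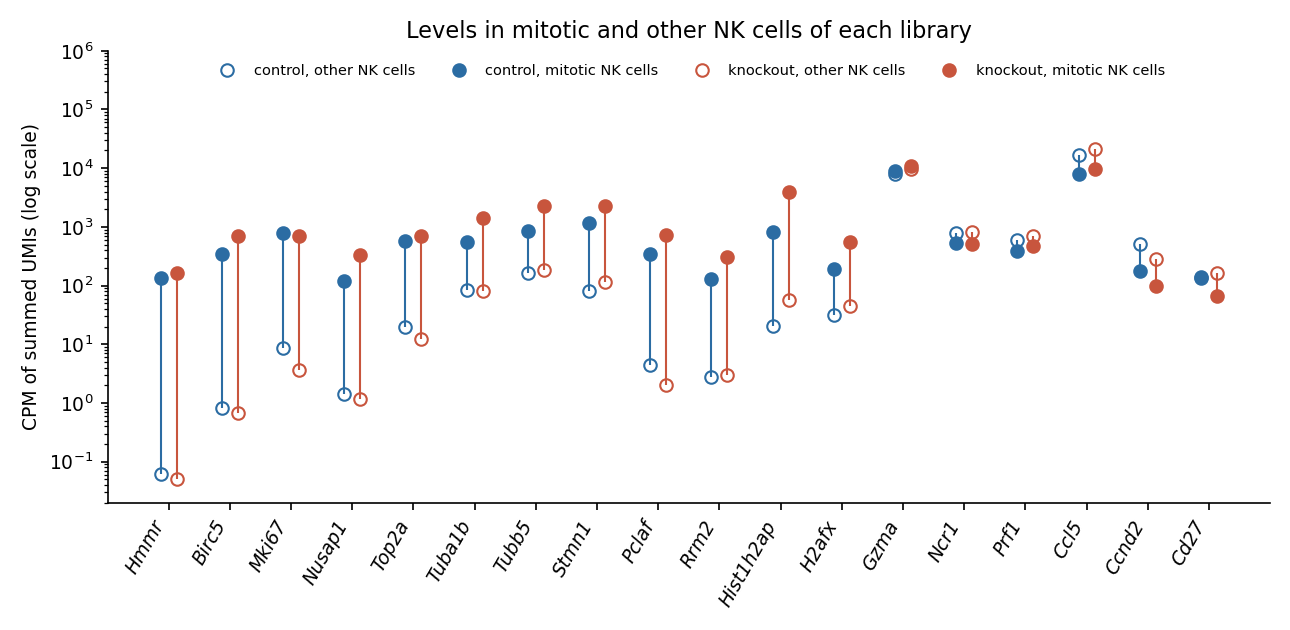
Level of 18 genes as CPM of summed UMIs (log scale), in mitotic (filled) and other (open) NK cells of the control (blue) and knockout (red) library, with 1 library per point. Genes of division are far apart between the cell groups, Gzma and Ncr1 are close, and Ccl5 and Ccnd2 are lower in mitotic cells of both libraries.

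Proteins that shape chromosomes were higher as well. The 25 genes of condensin, cohesin and chromosome structure had log2 ratios of 1.69 (1.67 to 1.72) and 2.04 (1.997 to 2.08). Mki67, which coats mitotic chromosomes, was at 783 against 8.71 CPM in the control and 710 against 3.67 CPM in the knockout library, log2 ratios of 6.49 (6.33 to 6.65) and 7.60 (7.27 to 7.92). It had a UMI in 68 of 84 and 22 of 25 mitotic cells, and in 3.10% and 1.27% of other NK cells. Top2a, which untangles DNA, had log2 ratios of 4.86 and 5.88. Hmgb2, a chromatin protein abundant in dividing cells, was at 4192 against 564 CPM and 6493 against 698 CPM. Smc2 and Smc4 of condensin had ratios of 2.02 and 1.44 in the control and 3.46 and 2.96 in the knockout library.

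Transcripts of S phase were also higher in the cells that the rule chose. The 30 replication-dependent histone genes summed to 7229 against 998 CPM in the control (log2 ratio 2.86, 2.82 to 2.89) and 11240 against 763 CPM in the knockout library (3.88, 3.83 to 3.94). Hist1h1b, a linker histone, had ratios of 6.34 and 6.26, and Hist1h3c 8.83 and 11.45. Histone genes are near-identical copies of each other, so the split of reads among them is uncertain, and their mRNAs mostly lack the poly(A) tails that oligo(dT) capture needs. The 49 DNA replication genes had log2 ratios of 1.45 (1.40 to 1.51) and 2.03 (1.94 to 2.11). Per cell, their sum in the control had a median of 10.5 per 10000 UMIs in mitotic and 10.2 in other NK cells, with a highest mitotic cell at 117. In the knockout library these medians were 17.8 and 10.4, with mitotic cells from 0 to 101. Pclaf, a partner of the DNA clamp PCNA, was at 344 against 4.43 CPM and 722 against 2.04 CPM. The 24 nucleotide synthesis genes had ratios of 1.30 and 1.73, and Rrm2, the cycling subunit of ribonucleotide reductase, 5.57 and 6.66.

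A pair of indices of 6 genes each, neither holding a rule gene, described the mitotic cells further. The S-phase index held Mcm5, Mcm6, Tyms, Rrm2, Clspn and Gins2, and the late mitosis index held Ccnb1, Plk1, Cdc20, Aurka, Hmmr and Kif20a. At least 2 late genes had a UMI in 34 of 84 control (40.5%) and 15 of 25 knockout (60%) mitotic cells, against 8 of 10372 and 2 of 9184 other NK cells. At least 2 S-phase genes had a UMI in 33 (39.3%) and 13 (52.0%) mitotic cells, against 7.62% and 3.48% of other NK cells. Both held in 21 and 10 cells, and neither in 38 and 7. At 2000 UMIs per cell the late index held in 8 of 84 (9.52%) and 6 of 25 (24.0%) mitotic cells and in 0 other NK cells, and the S-phase index in 12 (14.3%) and 8 (32.0%), against 1.28% and 0.867% of other NK cells.

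**Figure D4:**
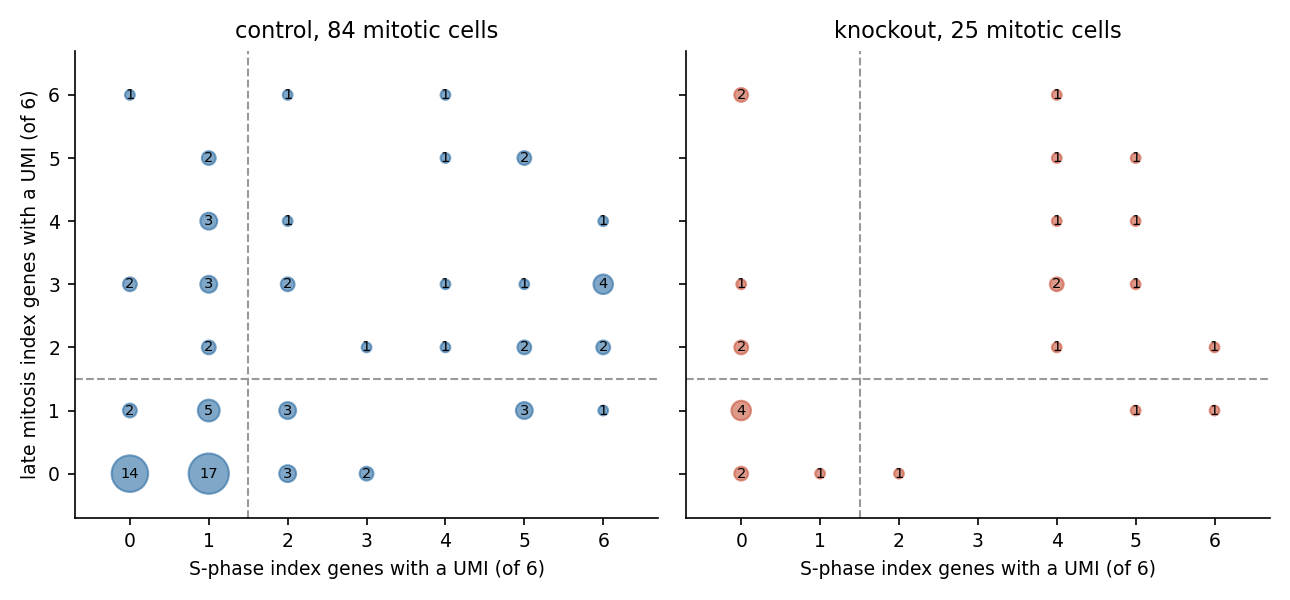
Mitotic NK cells of the control (left) and knockout (right) library by the number of S-phase index genes (x axis) and late mitosis index genes (y axis) with a UMI. Numbers and areas give cells, and dashed lines mark 2 genes. Cells with under 2 genes of each index number 38 in the control library and 7 in the knockout.

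Both the late index and the S-phase index went with the number of rule genes. Among control cells with 5 or 6 rule genes, 29 of 39 (74.4%) had at least 2 late genes, and among those with 3 or 4 rule genes 5 of 45 (11.1%) did. In the knockout library these were 14 of 17 (82.4%) and 1 of 8 (12.5%). At least 2 S-phase genes had a UMI in 21 of 39 (53.85%) against 12 of 45 (26.7%) control cells. For the knockout library these were 12 of 17 (70.6%) and 1 of 8 (12.5%). Median depth moved with the number of rule genes. It was 11080 against 7526 UMIs in the control and 11421 against 8024 UMIs in the knockout library. The part of depth in these differences was not tested. Cells with 5 or 6 rule genes were 46.4% of control and 68.0% of knockout mitotic cells.

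The summed levels of the G1 and quiescence lists were lower. The 10 G1 cyclins and kinases had log2 ratios of -0.50 (-0.62 to -0.39) and -0.51 (-0.77 to -0.26), and their sum is led by Ccnd2 and Ccnd3. Ccnd2 (cyclin D2), which acts in G1, was at 178 against 520 CPM in the control and 99.2 against 279 CPM in the knockout library, while Cdk4 was at 106 against 60.2 CPM and 123 against 58.7 CPM. The cyclins E, which act at the start of S phase, were at higher levels, Ccne1 at 26.7 against 5.47 CPM and 43.7 against 4.11 CPM, and Ccne2 at 31.2 against 1.19 CPM and, from 3 UMIs, 11.9 against 0.647 CPM. The 21 genes of quiescence and cell cycle inhibition had ratios of -0.50 (-0.55 to -0.45) and -0.82 (-0.92 to -0.71). Of their 13 measured members 0 and 3 were called lower, against 1.03% and 5.32% of all measured genes. In the knockout library 1 member was called higher. Of this list Btg1, an inhibitor of proliferation, had -0.71 and -1.35, and Txnip, which restrains glucose uptake, -0.86 and -1.45.

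**Figure D5:**
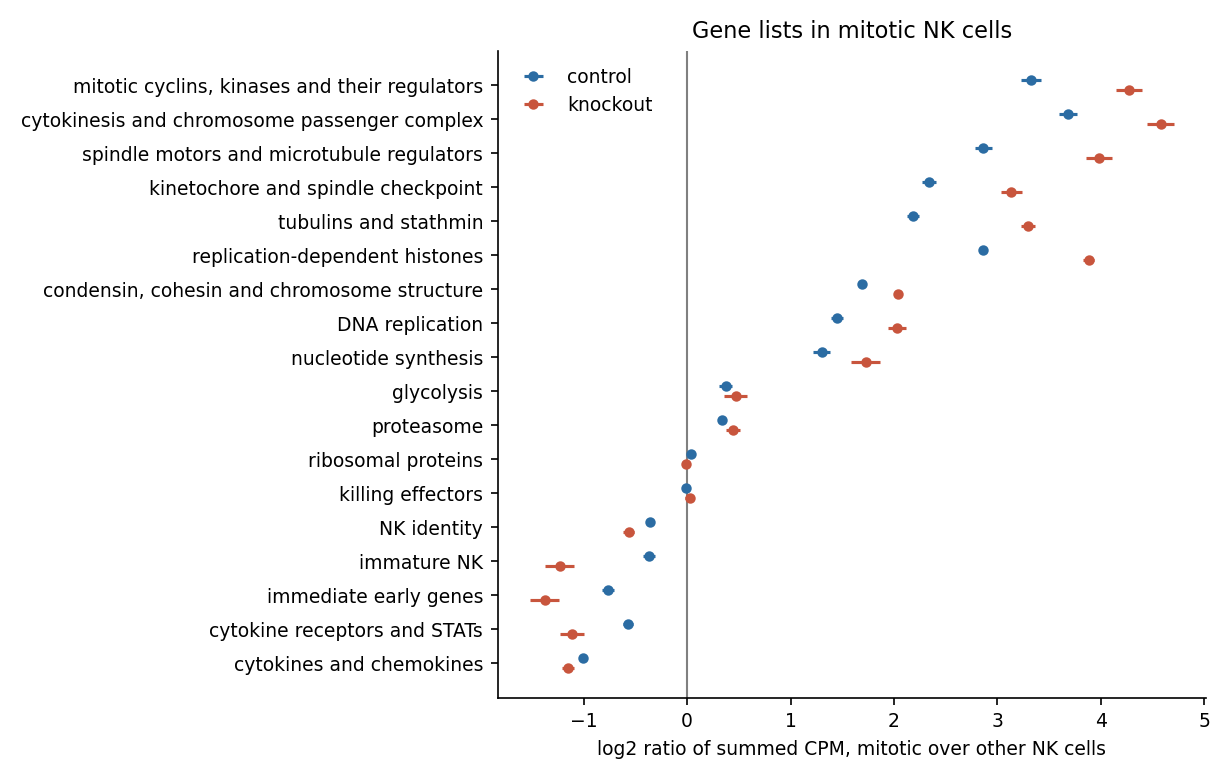
Log2 ratio of summed CPM, mitotic over other NK cells, for 18 gene lists in the control (blue) and knockout (red) library, over every listed gene in the files. Bars are 95% intervals for counting error. Division lists lie between 1.30 and 4.58, ribosomal proteins and killing effectors lie near 0, and immature NK genes, immediate early genes, cytokine receptors and cytokines lie below 0.

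The summed level of NK identity genes was somewhat lower. The 22 NK identity genes had log2 ratios of -0.36 (-0.38 to -0.33) and -0.56 (-0.62 to -0.51). Ncr1 itself was at 533 against 794 CPM and 520 against 823 CPM. CPM values share a fixed total, and the median log2 ratio over all measured genes was -0.04 in the control library and 0.00 in the knockout. Killing genes summed over 20 members to ratios of -0.01 (-0.04 to 0.01) and 0.02 (-0.02 to 0.07), while the medians over their 13 measured members were -0.49 and -0.25. The sum is led by Gzma (granzyme A), at 9079 against 7932 CPM and 10950 against 9698 CPM. Gzmb (granzyme B) was at 154 against 279 CPM and 218 against 295 CPM, and Prf1 (perforin) at 395 against 609 CPM and 472 against 690 CPM.

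The summed level of cytokines and chemokines was lower. The 11 cytokine and chemokine genes had log2 ratios of -1.01 (-1.04 to -0.98) and -1.15 (-1.21 to -1.09). Of the 7 measured members, 2 and 4 were called lower, against 1.03% and 5.32% of all measured genes, and their medians were -0.37 and -1.17. The sum is led by Ccl5, a chemokine that draws T cells, at 7871 against 16790 CPM and 9538 against 21500 CPM. Per cell, Ccl5 had a median of 74.1 per 10000 UMIs in control mitotic cells (1.06 to 217) against 162 in other NK cells, and 79.6 (12.1 to 248) against 206 in the knockout library. The ranges of the cell groups overlapped. Ccl3, another chemokine, was at 263 against 195 CPM and 155 against 123 CPM. Cytokine receptors and STATs had ratios of -0.57 (-0.62 to -0.52) and -1.11 (-1.23 to -0.999). Within them Ifngr1, a chain of the interferon gamma receptor, had -1.01 and -1.74, and Bcl2, which blocks cell death, -0.85 and -2.21.

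Immediate early genes, which respond within minutes to stimuli and to tissue handling, had ratios of -0.76 (-0.82 to -0.70) and -1.37 (-1.52 to -1.23). Junb was at 337 against 684 CPM and 222 against 773 CPM, and Fos at 131 against 273 CPM and 35.7 against 123 CPM. Among the 12 lowest genes, Zbtb20, a transcriptional repressor, had ratios of -1.56 (-1.90 to -1.23) and -1.89 (-2.80 to -1.12), and Ltb (lymphotoxin beta) -1.20 and -2.26. Of those 12, Styk1, Adamts14, Gprin3 and Kbtbd11 each rest on 1 UMI in the knockout mitotic cells. In the control their log2 ratios were -1.31, -0.85, -0.84 and -0.75.

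Values of maturation markers differed between the libraries, and that difference was not tested. Mitotic cells of the control had Cd27, the marker of less mature NK cells used in the sort, at 138 against 137 CPM, and those of the knockout library at 67.5 against 161 CPM from 17 UMIs. The 15 immature NK genes had log2 ratios of -0.37 (-0.42 to -0.31) and -1.23 (-1.38 to -1.09). Xcl1, a chemokine of less mature NK cells, was at 318 against 294 CPM in the control and at 35.7 against 158 CPM, from 9 UMIs, in the knockout library. Klrg1, a receptor of mature NK cells, was at 62.3 against 64.0 CPM and 115 against 47.3 CPM. Itgam (CD11b), also used in the sort, had ratios of -0.49 (-0.79 to -0.20) and -1.25 (-2.31 to -0.37). The 14 mature NK genes summed to ratios of 0.19 and 0.42, but their measured members had medians of -0.49 and -0.24, and the sum is led by Lgals1 (galectin 1) at 0.75 and 1.14.

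Summed lists of metabolism and protein turnover had small ratios. Glycolysis genes had log2 ratios of 0.37 (0.31 to 0.43) and 0.47 (0.35 to 0.58), nuclear genes of the respiratory chain 0.35 and 0.33, and the proteasome 0.33 and 0.44. Of these, Gapdh had 0.98 and 1.29, Aldoa, an aldolase of glycolysis, -0.97 and -1.96, and Cox5b of complex IV 0.83 and 0.99. Ribosomal protein genes were at 0.04 (0.03 to 0.04) and -0.01 (-0.02 to 0.00). Car2, which the erythroid marker list holds, was at 443 against 187 CPM and 369 against 186 CPM. In mitotic cells of each library 6 of the 10 erythroid markers, Alas2 and Car1 among them, were at 0.

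Mitotic cells of both genotypes were then compared with each other, over genes with a mean of at least 200 CPM in them. Of 645 genes, 17 were higher (2.64%) and 17 lower (2.64%) in knockout than control mitotic cells by a log2 ratio of 1 or more. Ptger3, the targeted gene, had 0 UMIs in the mitotic cells of both libraries, where 3 UMIs would be 3.34 CPM in the control library and 11.9 CPM in the knockout. It had 13 UMIs in other control NK cells (0.198 CPM) and 0 in other knockout cells, so it could not be compared in mitotic cells at this depth.

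Tubulins and several genes of division were at higher CPM in the knockout mitotic cells. Of the measured members, 3 of 4 tubulin and stathmin genes were called higher, against 2.64% of all 645 genes. So were 1 of 2 cyclin, 1 of 2 kinetochore, 1 of 1 spindle and 1 of 3 cytokinesis genes. Nusap1, Spc24 and H2afx were at 118, 124 and 195 CPM in control mitotic cells and passed the 200 CPM minimum only through the knockout cells. For such genes a call describes the filter too. Tubb5 was at 2243 against 836 CPM, a log2 ratio of 1.42 (1.26 to 1.58), where other NK cells had 0.20. Tuba1b had 1.35 (1.15 to 1.55) against -0.10 in other NK cells, and Tubb4b 1.60 (1.33 to 1.88) against 0.12. The tubulin and stathmin list had 1.26 (1.18 to 1.35) in mitotic and 0.16 in other NK cells. Birc5 had 1.01 (0.73 to 1.28) against -0.26, Nusap1 1.48 (1.05 to 1.91) against -0.31, and the histone H2afx 1.51 (1.18 to 1.84) against 0.53. The rule genes themselves summed to 1989 against 1323 CPM, a log2 ratio of 0.59, which describes the choice of cells. Mki67 was at 710 against 783 CPM and Cenpe at 230 against 258 CPM. With at least 5 of 6 rule genes in both libraries (39 and 17 cells), a restriction chosen after seeing the data, the tubulin list had a log2 ratio of 1.21. The replication-dependent histones moved less, from 0.64 to 0.59, and the cyclin, kinetochore, spindle and cytokinesis lists moved more. The cyclin list went from 1.07 to 0.86, kinetochore from 0.81 to 0.64, spindle from 0.61 to 0.45 and cytokinesis from 0.75 to 0.55. The late mitosis index genes went from 0.99 to 0.65. The DNA replication and nucleotide synthesis lists rose, from 0.54 to 0.69 and from 0.22 to 0.35.

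Macf1, Itga4, Itgb1 and Ptprc were among the 17 genes called lower in knockout mitotic cells. Of the measured members, 2 of 11 integrin and adhesion genes and 0 of 18 actin and motility genes were called lower, against 2.64% of all 645 genes. Macf1, which links actin and microtubules, was at 119 against 404 CPM, a log2 ratio of -1.76 (-2.35 to -1.22), where other NK cells had -1.32. Macf1 passed the minimum only through the control cells. Itga4 (the alpha 4 integrin chain) had -1.32 (-1.67 to -0.995) against -1.19, Itgb1 (the beta 1 chain) -1.12 (-1.46 to -0.79) against -0.75, and Ptprc (CD45) -1.08 (-1.31 to -0.86) against -0.86. Immature NK genes had -0.73 (-0.89 to -0.58) in mitotic cells and 0.13 in other NK cells. Immediate early genes had -0.69 (-0.85 to -0.54) and -0.08. Whether a gap in mitotic cells differs from the gap in other NK cells was not tested, since each genotype had 1 library.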

How the data were processed

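UMI counts per gene and barcode were deposited by the authors as 1 matrix per library, with no normalization. Per the submitters' processing notes STAR, Cell Ranger 3.0.0, Seurat and the build GRCm39 were used, and the order of these steps is not given in the sources used here. The libraries held 69853026 (control) and 42795121 (knockout) UMIs in 11785 and 10615 barcodes. Rows sharing a symbol (35 symbols) were summed.

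Counts were summed over mitotic and over other NK cells of each library and scaled to CPM. Log2 ratios have exact conditional binomial 95% intervals, and shares have exact Clopper-Pearson intervals. With 1 library per genotype no test was run. A count of 0 was set to a floor of 3 UMIs, and no ratio was kept where that gave no bound. Named genes were the rule genes, the 12 highest and 12 lowest by mean log2 ratio of both libraries (without mitochondrial, ribosomal, predicted, receptor, haemoglobin and sex-specific genes), up to 4 per list, and a fixed set. Further members of the fixed lists (Ccna2, Tuba1a, Hmgb2, Smc2, Smc4, Tubb4b, Ccl3, Ccne1, Ccne2, Klrd1, Tyrobp) and Ptprc were added after their values were seen. The mitotic cells, the 48 gene lists and the named genes were chosen with earlier results of these data known. The scripts were tested on simulated data. Promoters came from RefSeq (GRCm38.p6). The scripts ran under Python 3.11.15 with scipy 1.17.1 (intervals), pandas 2.3.3, numpy 2.4.6 and, for the plots, matplotlib 3.10.9. Alternatives changed the minimum level, scaling, rule genes, depth, cell weight, comparison cells and lineage filters.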

Additional observations from a re-analysis of the deposited data

Results flagged for a closer look

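For 3 of the named genes, the ratio of mitotic over other NK cells pointed in opposite directions in the libraries. Both counting intervals of each lay on their own side of 0. Named genes added after their values were seen are not part of this count. Hsph1, a heat shock protein of the HSP110 family, had a log2 ratio of -0.76 (80.1 against 136 CPM) in the control and 2.09 (43.7 against 10.3 CPM, 11 UMIs) in the knockout library. Stip1, a co-chaperone that joins HSP70 to HSP90, had -0.45 (87.9 against 120 CPM) and 1.24 (75.4 against 31.9 CPM, 19 UMIs), but at 2000 UMIs per cell the knockout value was -0.59, in the direction of the control. S1pr1, the receptor for lymphocyte exit from tissue, had 0.41 (66.8 against 50.4 CPM) and -2.60 (7.94 against 48.2 CPM, 2 UMIs). In the knockout library Hsph1 and S1pr1 lay below the minimum mean of 50 CPM, so they were not among its compared genes. The differences between libraries were not tested, since each genotype had 1 library.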

How the results depend on the processing

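Counting error in 25 knockout mitotic cells limits every value of that library, and 1 library per genotype leaves no measure of spread between mice. No paired analysis was possible because each genotype had 1 library. The mitotic share moved with the rule: at least 2 rule genes gave 1.13% in the control, at least 4 gave 0.526%, and at 2000 UMIs the shares were 0.291% and 0.133%, or 0.533% in the control with 2 rule genes (added after seeing the data). Leaving out every cell with a UMI of any of 45 other-lineage markers kept 4 and 1 mitotic cells, with shares of 0.181% and 0.0367%, a ratio of 4.93 (counting interval 0.488 to 243), 600 higher and 308 lower genes in the control and 1092 higher in the knockout library. The control share stayed above the knockout share in all alternatives run, at ratios from 2.18 to 4.93. Counts of genes, as higher and lower in the control and then in the knockout library, were 243, 118, 466 and 499 at a minimum of 20 CPM, 1471, 822, 1390 and 1351 with no minimum, and 227, 254, 454 and 425 at a log2 ratio of 0.58. At 2000 UMIs 120 were lower in the control, and 422 were higher and 237 lower in the knockout library. Against other NK cells of like depth 14 were lower in the control, and with at least 5 rule genes (added) 63 were. Between genotypes, a minimum of 100 CPM gave 40 higher and 59 lower, 2000 UMIs gave 26 and 28, and at least 5 rule genes (added) gave 26 lower. Among 168 log2 ratios of named genes of at least 1 in size, 1 changed sign under an alternative, Stip1 in the knockout library at 2000 UMIs (-0.59), and of 38 such summed lists 0 did. These counts include the rule genes and their summed list, whose signs follow from the choice of cells. They also include genes that were named for having the highest or lowest ratios. Of smaller ratios, 33 of 172 for named genes and 15 of 57 for summed lists changed sign, among them Cd27, Klrg1 and Xcl1 in the control (Xcl1 from -0.18 to 0.18), and killing effectors and ribosomal proteins in both libraries. The causes were not tested.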

Other observations

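Over 21 heat shock and chaperone genes, other NK cells of the knockout library had 3218 CPM against 6906 CPM in the control, a log2 ratio of -1.10 (-1.11 to -1.09). Mitotic cells had 4993 against 6822 CPM, a ratio of -0.45 (-0.54 to -0.36). Within the control library the list was level between mitotic and other NK cells (-0.02, -0.05 to 0.02), and within the knockout library it was higher in mitotic cells (0.63, 0.55 to 0.71).

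Of the 94 genes higher in mitotic cells of both libraries, 34 were on none of the lists. They included Ezh2, the histone H3K27 methyltransferase, with log2 ratios of 1.83 and 2.98, Gmnn (geminin), which blocks relicensing of DNA replication, with 2.61 and 3.49, and Ran, the GTPase of nuclear transport and spindle assembly, with 1.17 and 1.505. Tmpo, a lamina-associated protein, had 1.62 and 2.55. Of the 17 genes lower in both libraries, 8 were on none of the lists, among them the nuclear RNA Malat1 with -1.37 and -1.63, Hopx with -1.30 and -1.60 and Clec2d, a ligand of NKR-P1 receptors, with -1.07 and -1.58. These genes were chosen after their values were seen.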
